A study of Mus musculus with 14 samples.

Results

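The genes described here are 9 genes known for their expression in the projection neurons of the striatum, namely Scn4b, Rasd2, Drd2, Ppp1r1b, Penk, Tac1, Adora2a, Pde10a and Rgs9. They were taken as every probe set that the platform annotation assigns to 1 of these symbols, and the set was put together because Scn4b and Rasd2 were among the genes most raised in the SEZ_GFPprom sort over the DIEC_GFP sort. Of the 9 genes, 8 were measured, by 16 probe sets, among 18193 genes measured in all. Adora2a was not analysed here.

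RNA of cells sorted by fluorescence from 8-week-old hGFAP eGFP mice was measured on 14 Affymetrix mouse expression arrays in 5 groups. The transgene of these mice puts green fluorescent protein (GFP) under the promoter of human GFAP, an astroglial gene, so GFP marks cells in which this promoter is active. All 5 groups came from mice that carried it. SEZ_GFPprom (4 arrays) was sorted from the subependymal zone, the germinal layer beside the lateral ventricle of the adult forebrain, for GFP together with the surface protein prominin. SEZ_GFP (2 arrays) was sorted from the same tissue for GFP, SEZ_Prom (2 arrays) for prominin and SEZ_CD24 (2 arrays) for the surface antigen CD24. DIEC_GFP (4 arrays) was sorted for GFP from the diencephalon. The labels call the first 3 SEZ groups neural stem cells, SEZ_CD24 ependymal cells and DIEC_GFP astrocytes, and they give only the marker each sort was positive for. Replicates are labelled as biological, and the number of animals behind an array was not given in the sources used here.

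Striatal projection neurons are GABAergic output neurons that receive dopamine. The neurons of the indirect pathway carry the dopamine receptor Drd2 and the adenosine receptor Adora2a and make enkephalins from Penk, whereas those of the direct pathway carry Drd1 and make substance P from Tac1. Both kinds share the machinery that links receptors to cAMP, of which Ppp1r1b, Pde10a and Rgs9 are parts.

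The stretch of 250 bases just before the annotated transcript start was read from RefSeq (GRCm38.p6) for 6 of the 8 measured genes, in 7 windows. The windows of Scn4b and Rasd2 are shown because these genes led to the choice of the set, and that of Tac1 because it was the member whose order of groups departed most from theirs. Capitals mark the core of a cAMP response element (TGACG, read here on the reverse strand), the only marked motif found in these 3 windows. The window of Scn4b lies on the plus strand at chr9:45138374-45138623, before the gene at 45138624 to 45154155 of chromosome 9. The window of Rasd2 lies on the plus strand at chr8:75213694-75213943, and that of Tac1 on the plus strand at chr6:7554811-7555060.
Scn4b: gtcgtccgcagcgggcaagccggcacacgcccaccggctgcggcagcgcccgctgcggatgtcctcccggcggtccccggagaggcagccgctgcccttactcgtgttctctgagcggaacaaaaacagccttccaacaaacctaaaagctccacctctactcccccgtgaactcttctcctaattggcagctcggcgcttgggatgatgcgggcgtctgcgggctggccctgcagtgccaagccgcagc
Rasd2: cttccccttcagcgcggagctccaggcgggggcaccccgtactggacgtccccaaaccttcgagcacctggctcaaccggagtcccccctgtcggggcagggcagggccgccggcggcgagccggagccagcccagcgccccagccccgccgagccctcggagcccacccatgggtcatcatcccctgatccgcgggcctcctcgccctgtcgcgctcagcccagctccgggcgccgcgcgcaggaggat
Tac1: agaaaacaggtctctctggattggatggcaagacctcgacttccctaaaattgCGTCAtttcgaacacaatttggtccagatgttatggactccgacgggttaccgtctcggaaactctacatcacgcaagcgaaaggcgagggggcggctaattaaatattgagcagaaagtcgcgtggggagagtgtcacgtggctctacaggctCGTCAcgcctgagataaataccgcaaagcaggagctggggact
GC content was 66.0% in the Scn4b window, 75.2% in the Rasd2 window and 51.2% in the Tac1 window, against a median of 52.4% over all 32851 windows of this length. Tac1 held the element's core at 197 and 43 bases before the start (offsets -197 and -43) and a GC box (GGGCGG) at -107. On either strand, TGACG was found in 17.8% of all windows and GGGCGG in 32.7%. Neither the Scn4b nor the Rasd2 window held TGACG, its full palindrome TGACGTCA (1.55% of all windows), TGACAG (15.9%), AGGTCA (4607 of the 32851 windows), TATAAA (12.4%) or GGGCGG, where TGACGTCA contains TGACG on both strands. Of the windows not shown, Rgs9 held TATAAA at -195 and a GC box, Drd2 held 2 GC boxes, and of the pair of Pde10a windows 1 held a GC box.

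Intensities are on a linear scale on which a probe set can be compared between arrays, but not with another probe set. Over all genes, the correlation of log2 values was 0.942 to 0.979 between replicates and 0.845 to 0.952 between groups. The 12 ependymal markers summed to intensities of 487 to 544 in SEZ_CD24, the group labelled ependymal, against 12477 to 21094 in SEZ_GFPprom, 797 to 1147 in SEZ_GFP, 717 to 1003 in SEZ_Prom and 5642 to 8011 in DIEC_GFP. The sum of the markers of the labelled type was thus lowest in SEZ_CD24. Their mean log2 intensity was also lowest there (4.91 to 4.98), against 5.34 to 5.58 in SEZ_GFP and 5.38 to 5.62 in SEZ_Prom. Not every single marker was lowest there. Group means were higher in SEZ_GFP than in SEZ_CD24 for 8 of 12, and in SEZ_Prom for 9 of 12. In the limma test described below, 0 of 12 passed in either of these comparisons. The 11 neural stem and radial glia genes summed to 7425 to 8813 in SEZ_GFPprom, 7823 to 8108 in SEZ_GFP and 3800 to 3818 in SEZ_Prom, the 3 groups labelled neural stem. Their sums were 3430 to 3762 in SEZ_CD24, just below SEZ_Prom, and 4856 to 7044 in DIEC_GFP. The 12 astrocyte markers summed to 15904 to 34545 in DIEC_GFP, against at most 19308 on any SEZ array.

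The 8 measured genes shared a pattern: all of them were highest in SEZ_Prom, where 21.2% of all 18193 genes had their highest group mean. SEZ_GFPprom came next for all 8. The order SEZ_Prom, SEZ_GFPprom, SEZ_CD24, SEZ_GFP and DIEC_GFP from high to low held for 6 of them. In Penk, DIEC_GFP stood above SEZ_GFP at the bottom of the order, and in Tac1 it stood above both SEZ_CD24 and SEZ_GFP. Each array holds RNA of many cells, so fewer cells of a type and less RNA per cell cannot be told apart.

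**Figure D1:**
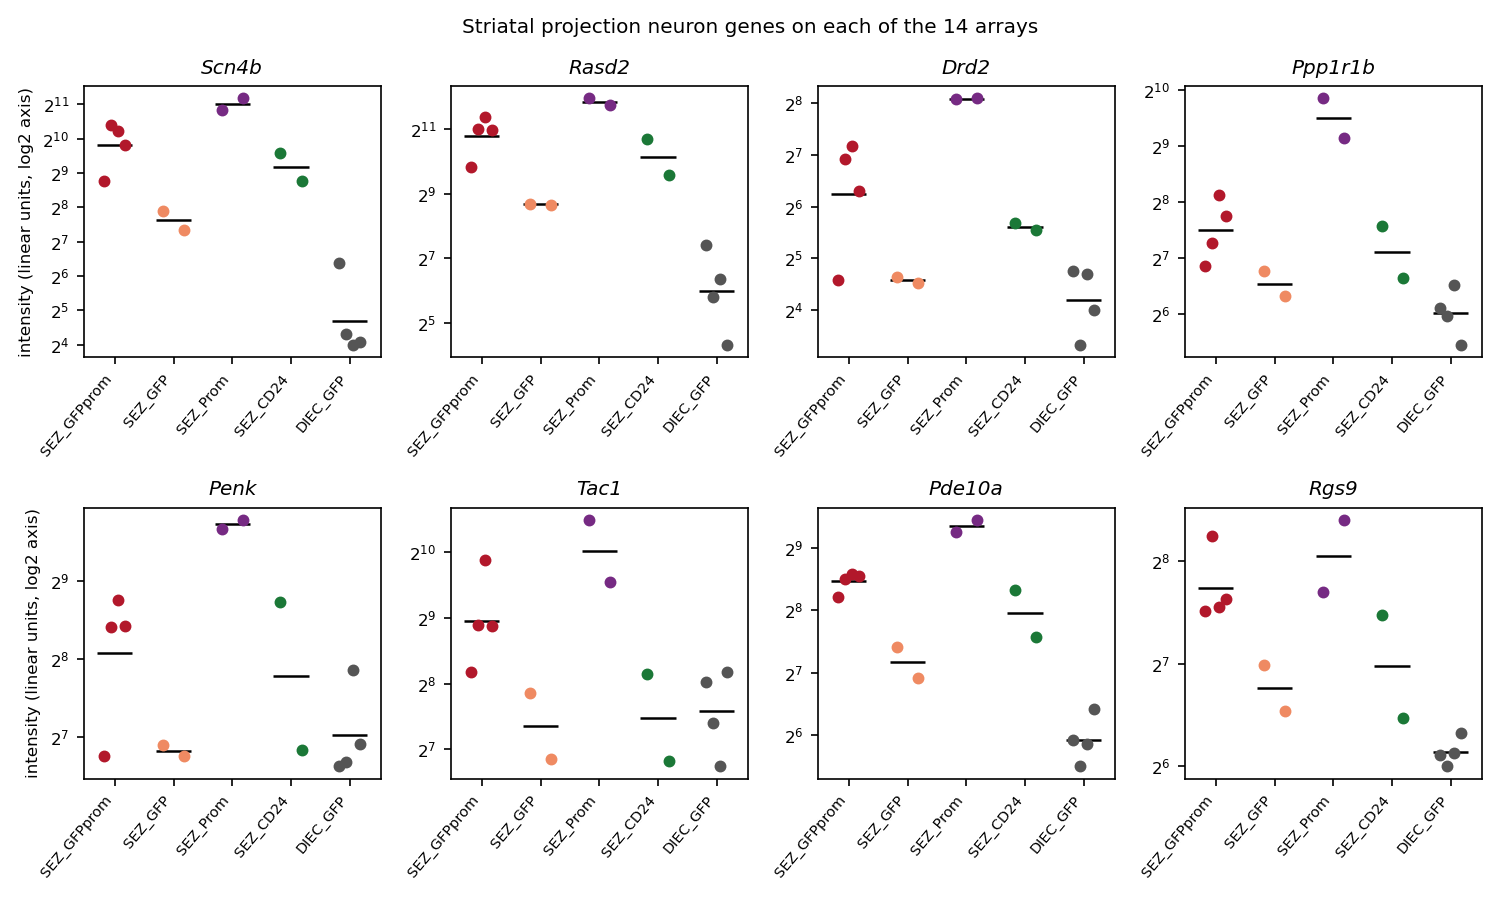
Intensity of the 8 measured genes on a log2 axis for each of the 14 arrays (points), with the mean of the log2 values of each group (lines), 1 panel per gene with a scale of its own and the 5 sort groups along the horizontal axis. SEZ_Prom holds the highest group mean in all 8 panels, and Scn4b and Rasd2 span the widest range, with group means 6.31 and 5.88 log2 units apart between SEZ_Prom and DIEC_GFP.

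Drd2 is the inhibitory dopamine receptor of indirect pathway neurons (GRCm38.p6, chromosome 9, 49340360 to 49408177). Its intensity was 24, 121, 144 and 79 in SEZ_GFPprom, 25 and 23 in SEZ_GFP, 271 and 274 in SEZ_Prom, 51 and 47 in SEZ_CD24, and 27, 10, 26 and 16 in DIEC_GFP. The pair of SEZ_Prom arrays stood above all 12 others, while the first SEZ_GFPprom array lay at the level of SEZ_GFP and DIEC_GFP.

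Ppp1r1b encodes a phosphoprotein that, once phosphorylated by protein kinase A, inhibits a protein phosphatase and so carries dopamine signals (chromosome 11, 98348406 to 98357796). It measured 117, 154, 281 and 215 in SEZ_GFPprom, 109 and 80 in SEZ_GFP, 921 and 565 in SEZ_Prom, 191 and 100 in SEZ_CD24, and 69, 63, 92 and 44 in DIEC_GFP. Both SEZ_Prom values lay above every other array, SEZ_CD24 overlapped SEZ_GFPprom, and SEZ_GFP lay just below it.

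Pde10a is the phosphodiesterase that breaks down cAMP and cGMP in striatal neurons (chromosome 17, 8525187 to 8986648). Its brightest probe set measured 297, 364, 385 and 374 in SEZ_GFPprom, 171 and 120 in SEZ_GFP, 615 and 702 in SEZ_Prom, 322 and 190 in SEZ_CD24, and 60, 45, 58 and 85 in DIEC_GFP. Replicates of this gene were the closest among the members in SEZ_GFPprom (mean 8.46 ± 0.17 log2 intensity, SD, n = 4), and its SEZ_GFPprom values overlapped only those of SEZ_CD24.

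Rgs9 speeds up the shut-off of G proteins downstream of dopamine receptors (chromosome 11, 109225348 to 109298181). Its intensity was 183, 303, 188 and 198 in SEZ_GFPprom, 127 and 93 in SEZ_GFP, 208 and 339 in SEZ_Prom, 178 and 89 in SEZ_CD24, and 69, 64, 70 and 80 in DIEC_GFP. It had the narrowest span of the 8, with group means 1.91 log2 units apart between SEZ_Prom and DIEC_GFP, and SEZ_Prom and SEZ_GFPprom overlapped.

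Rasd2 encodes a small GTPase enriched in striatal neurons (chromosome 8, 75213944 to 75224113). It measured 910, 2051, 2675 and 2033 in SEZ_GFPprom, 415 and 402 in SEZ_GFP, 3996 and 3440 in SEZ_Prom, 1674 and 765 in SEZ_CD24, and 169, 56, 83 and 20 in DIEC_GFP. All 10 SEZ arrays lay above all 4 DIEC_GFP arrays, and SEZ_CD24 overlapped SEZ_GFPprom.

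Scn4b encodes an auxiliary subunit of voltage-gated sodium channels. It measured 438, 1359, 1201 and 897 in SEZ_GFPprom, 238 and 162 in SEZ_GFP, 1829 and 2307 in SEZ_Prom, 771 and 436 in SEZ_CD24, and 83, 20, 16 and 17 in DIEC_GFP. As in Rasd2, the SEZ arrays all lay above the DIEC_GFP arrays, of which the first stood above the other 3.

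The peptide precursors differed less between groups than Scn4b and Rasd2 did. Penk (chromosome 4, 4133536 to 4138815) measured 108, 339, 431 and 341 in SEZ_GFPprom, 120 and 108 in SEZ_GFP, 809 and 876 in SEZ_Prom, 424 and 114 in SEZ_CD24, and 99, 103, 233 and 121 in DIEC_GFP. Tac1 (chromosome 6, 7555061 to 7562978) measured 289, 476, 941 and 471 in SEZ_GFPprom, 232 and 115 in SEZ_GFP, 1441 and 749 in SEZ_Prom, 283 and 113 in SEZ_CD24, and 261, 169, 107 and 290 in DIEC_GFP. For Penk the SEZ_Prom arrays were apart from all others, whereas for Tac1 the third SEZ_GFPprom array lay above the lower SEZ_Prom array. The DIEC_GFP arrays overlapped SEZ_GFP and SEZ_CD24 in both genes.

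The contrast between SEZ_GFPprom and DIEC_GFP chose the genes and is given as a description with no test. Means were 34.5-fold higher in SEZ_GFPprom for Scn4b and 28.4-fold for Rasd2, the fifth and seventh largest increases of 18193 genes. Scn4b was at 16 to 20 on 3 of the 4 DIEC_GFP arrays and at 83 on the other, so the size of its fold and its rank rest on low intensities. With the ratio of 3' to 5' control signal in the model, the log2 differences were 5.94 for Scn4b and 5.90 for Rasd2, against 5.11 and 4.83 without it. That ratio itself differed between these groups, as given below. The other 6 members were higher by 5.85-fold (Pde10a), 4.14-fold (Drd2), 3.02-fold (Rgs9), 2.80-fold (Ppp1r1b), 2.58-fold (Tac1) and 2.08-fold (Penk). For 5 of the 8 every SEZ_GFPprom array was above every DIEC_GFP array, as it was for 11.6% of all genes.

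The 3 comparisons among SEZ_GFP, SEZ_Prom and SEZ_CD24 hold no array of the contrast cited for the choice of the genes. The genes were nonetheless chosen with earlier results of these data known. These comparisons are thus not independent of the choice, and they share arrays among themselves. Their errors come from the fit of all 14 arrays, SEZ_GFPprom and DIEC_GFP included. Tests here and below are limma's moderated test, two-sided, with p adjusted over all 18193 genes. Between the GFP sort and the prominin sort, 7 of 8 members were lower in SEZ_GFP, where 4.15% of all genes passed as lower, and all 8 had both SEZ_GFP arrays below both SEZ_Prom arrays, as had 27.8% of all genes. Drd2 fell by 3.51 on the log2 scale (95% interval -5.04 to -1.97, adjusted p = 0.0143), which is 11.4-fold higher in SEZ_Prom. Scn4b fell by 3.39 (-4.99 to -1.79, adjusted p = 0.0199) and Rasd2 fell by 3.18 (-4.91 to -1.46, adjusted p = 0.035), and these were 10.5-fold and 9.08-fold higher in SEZ_Prom. The smallest adjusted p-values belonged to Pde10a, which fell by 2.20 (-2.90 to -1.49, adjusted p = 0.00488), and Ppp1r1b, which fell by 2.95 (-3.97 to -1.93, adjusted p = 0.00603).

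Among the peptide precursors, Penk fell by 2.89 (-4.39 to -1.39, adjusted p = 0.0296) and Tac1 fell by 2.67 (-4.08 to -1.26, adjusted p = 0.0318) in SEZ_GFP. Rgs9 did not pass, with a difference of -1.29 (-2.08 to -0.50, adjusted p = 0.0538). The median difference of the 8 was -2.92, against -0.01 over all genes. With only the arrays of SEZ_GFP and SEZ_Prom in the fit, 4 of 8 passed, without Ppp1r1b (adjusted p = 0.0553), Tac1 (0.103) and Pde10a (0.0519). With values under 10 set to 10, 4 of 8 passed, without Rasd2 (adjusted p = 0.0633), Penk (0.0551) and Tac1 (0.0568), and with the replicate number as a block Rasd2 was at 0.0509. With 2 arrays a group these calls rest on few arrays: without the second SEZ_GFP array 0 of 8 passed, without the first SEZ_Prom array 1, and without the first SEZ_GFP array or the second SEZ_Prom array 2, each time with the lone array taken to vary like the other groups. All 8 differences kept their sign in these fits.

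Between the prominin sort and the CD24 sort, all 8 members had both SEZ_Prom arrays above both SEZ_CD24 arrays, as had 27.2% of all genes, and 3 of 8 passed as higher in SEZ_Prom, against 3.43% of all genes. These were Tac1 (5.81-fold, log2 difference 2.54, 95% interval 1.13 to 3.95, adjusted p = 0.0435), Ppp1r1b (5.22-fold, 2.38, 1.36 to 3.40, adjusted p = 0.0174) and Pde10a (2.66-fold, 1.41, 0.71 to 2.11, adjusted p = 0.0298). Drd2 had a difference of 2.48 (0.95 to 4.01, adjusted p = 0.0634), and Penk, Scn4b, Rasd2 and Rgs9 had differences of 1.94, 1.82, 1.71 and 1.08 (adjusted p = 0.125, 0.171, 0.239 and 0.106). The count fell to 0 without either SEZ_Prom array, without the second SEZ_CD24 array, with only the arrays compared in the fit, and with the ratio of 3' to 5' control signal in the model, and it was 5 without the first SEZ_CD24 array. The call of Tac1 was also lost with values under 10 set to 10 (adjusted p = 0.0725), in the fit per probe set (0.0545) and with the replicate number as a block (0.0628).

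Between the GFP sort and the CD24 sort, 0 of 8 members passed in limma, against 0.363% of all genes higher and 0.456% lower in SEZ_GFP, and 1 of 8 (Pde10a) had an unadjusted p under 0.05. All 8 differences were negative, and they ran between -1.56 (-3.16 to 0.04, Scn4b) and -0.13 (-1.54 to 1.28, Tac1). For 4 of 8 both SEZ_GFP arrays lay below both SEZ_CD24 arrays, as for 17.9% of all genes. These intervals leave room for differences of more than 1 log2 unit in 7 of 8 members.

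**Figure D2:**
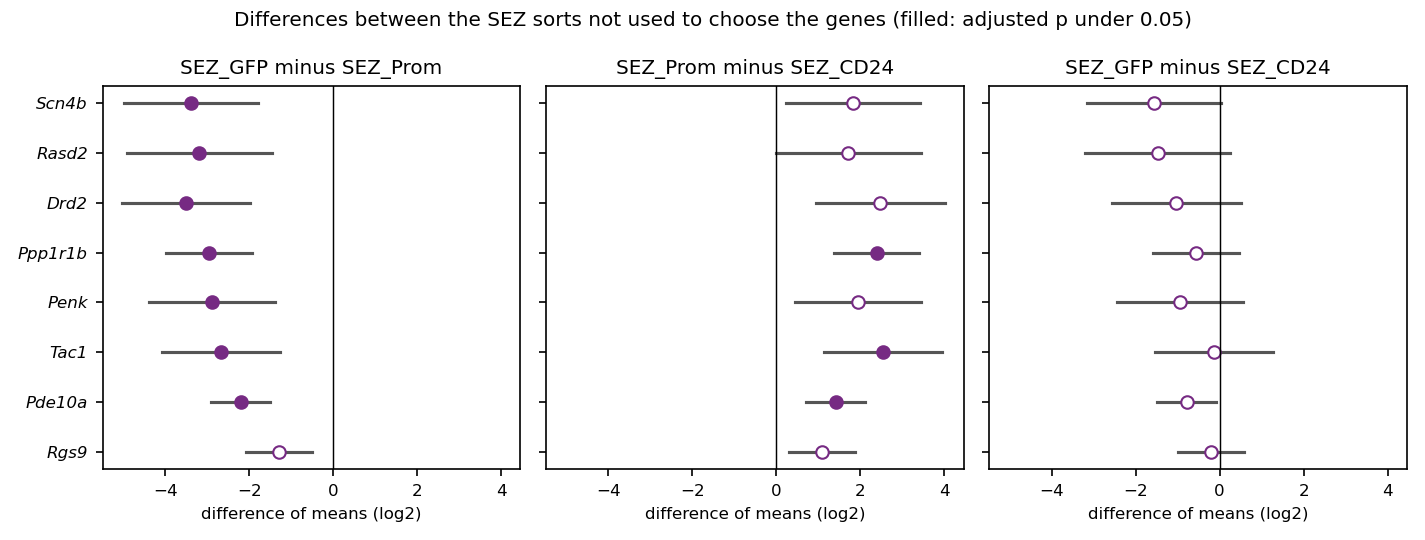
Difference of group means on the log2 scale for each of the 8 genes in the 3 comparisons among SEZ_GFP, SEZ_Prom and SEZ_CD24, with 95% intervals from limma (bars) and a filled point where the adjusted p was under 0.05. The filled points are 7 of 8 in SEZ_GFP minus SEZ_Prom, 3 of 8 in SEZ_Prom minus SEZ_CD24 and 0 of 8 in SEZ_GFP minus SEZ_CD24.

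The remaining 6 comparisons share the arrays of SEZ_GFPprom or DIEC_GFP with the contrast that led to the choice, so Scn4b and Rasd2 are described in them without a test and the other 6 members were tested. Counts of groups without overlap take in all 8 members, so for Scn4b and Rasd2 they only describe what the choice used in part. The clearest was SEZ_Prom against DIEC_GFP. All 6 were higher in SEZ_Prom, where 3.35% of all genes passed as higher, and for all 8 members the groups did not overlap, as for 14.3% of all genes. Drd2 was 14.9-fold higher (log2 difference 3.90 ± 0.61, SE, adjusted p = 0.00324), Ppp1r1b 11.1-fold (3.48 ± 0.40, adjusted p = 0.000614) and Pde10a 10.9-fold (3.44 ± 0.28, adjusted p = 9.77e-05). Penk was 6.47-fold higher (adjusted p = 0.0196), Tac1 5.40-fold (adjusted p = 0.0239) and Rgs9 3.77-fold (adjusted p = 0.0043). Scn4b and Rasd2 were 79.2-fold and 58.9-fold higher, the largest and second largest increases of all genes in this comparison, with the same low Scn4b values in DIEC_GFP. Their log2 differences were 6.31 and 5.88, and 7.71 and 7.70 with the ratio of 3' to 5' control signal in the model. The call of Tac1 was lost with only the groups compared in the fit (adjusted p = 0.0609) and without the second DIEC_GFP array (0.0549). The calls of Penk and Tac1 rest on both SEZ_Prom arrays. Without the first, their log2 differences were 2.75 and 1.96, and without the second 2.64 and 2.91. The count was 3 of 6, with Drd2, Ppp1r1b and Pde10a among them in each case, without the second SEZ_Prom array and with the ratio of 3' to 5' control signal in the model.

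Of the other SEZ groups against DIEC_GFP, Pde10a was the only one of the 6 tested members to pass. It was 4.09-fold higher in SEZ_CD24 (log2 difference 2.03 ± 0.28, SE, adjusted p = 0.000548) and 2.37-fold higher in SEZ_GFP (1.25 ± 0.28, adjusted p = 0.0121). The share of all genes that passed as higher was 6.90% in SEZ_CD24 minus DIEC_GFP and 5.61% in SEZ_GFP minus DIEC_GFP. The groups did not overlap, with the SEZ arrays above, for 6 of 8 members in SEZ_CD24 and 4 of 8 in SEZ_GFP, against 14.4% and 15.7% of all genes. Both counts include Scn4b and Rasd2, which led to the choice. The others were Pde10a and Rgs9 in both comparisons, and also Drd2 and Ppp1r1b in SEZ_CD24. Without the first SEZ_GFP array, with only the arrays compared in the fit, or with the ratio of 3' to 5' control signal in the model, 0 of 6 passed in SEZ_GFP minus DIEC_GFP. In SEZ_CD24 minus DIEC_GFP, 2 of 6 passed without the first SEZ_GFPprom array or without the second SEZ_CD24 array.

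SEZ_GFPprom lay between the GFP sort and the prominin sort. Against SEZ_GFP, Pde10a was 2.47-fold higher in SEZ_GFPprom (log2 difference 1.30 ± 0.28, SE, adjusted p = 0.025), as the 1 of 6 tested that passed, where 2.63% of all genes passed as higher. The other 5 had differences of 0.96 to 1.66 with adjusted p between 0.143 and 0.36, and Scn4b and Rasd2 were 4.56-fold and 4.37-fold higher. For 6 of 8 members every SEZ_GFPprom array lay above both SEZ_GFP arrays, as for 15.9% of all genes. The count was 0 without the second or the fourth SEZ_GFPprom array or either SEZ_GFP array, and 2 without the first SEZ_GFPprom array.

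Against SEZ_Prom, Ppp1r1b fell by 1.99 on the log2 scale in SEZ_GFPprom (SE 0.40, adjusted p = 0.013), as the 1 of 6 tested that passed, where 2.76% of all genes passed as lower. The others ran between -1.85 (Drd2, adjusted p = 0.0951) and -0.32 (Rgs9, adjusted p = 0.621). For 6 of 8 members the SEZ_GFPprom arrays all lay below both SEZ_Prom arrays, as for 14.8% of all genes, and 0 of 6 passed without the first SEZ_Prom array. Against SEZ_CD24, 0 of 6 passed in limma, where 8.98% of all genes passed as higher and 4.74% as lower, and 2 of 6 had an unadjusted p under 0.05. These 6 differences ran between 0.30 (Penk, 95% interval -0.999 to 1.60) and 1.47 (Tac1, 0.25 to 2.70). For 2 of 8 members the SEZ_GFPprom arrays lay above the SEZ_CD24 arrays, against 20.8% of all genes, and 1 of 6 passed without the first SEZ_CD24 array.

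The other genes of striatal signalling, a list of 20 of which 18 were measured, had their highest mean in SEZ_Prom in 15 of 18. Drd1, the stimulatory dopamine receptor of direct pathway neurons, measured 34, 50, 32 and 25 in SEZ_GFPprom, 22 and 23 in SEZ_GFP, 136 and 119 in SEZ_Prom, 71 and 27 in SEZ_CD24, and 21, 26, 27 and 22 in DIEC_GFP. Only the SEZ_Prom arrays and the first SEZ_CD24 array stood clear of the rest. Drd1 fell by 2.50 on the log2 scale in SEZ_GFP relative to SEZ_Prom (adjusted p = 0.00644), and it was 5.33-fold higher in SEZ_Prom than in DIEC_GFP (adjusted p = 0.00213).

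Of these 18 genes, 10 fell in SEZ_GFP relative to SEZ_Prom and 0 rose (median -2.40). Next to Drd1, the smallest adjusted p-values were those of Actn2, an actin cross-linker at synapses (-3.10, adjusted p = 0.0061), Ptpn5, a striatum-enriched tyrosine phosphatase (-2.56, adjusted p = 0.00701), and Pde1b, a calmodulin-dependent phosphodiesterase (-2.35, adjusted p = 0.00799). In SEZ_Prom relative to DIEC_GFP, 10 of 18 rose and 0 fell (median 2.04), among them Gng7, a G protein subunit of striatal neurons (41.6-fold, adjusted p = 0.000122), Pde1b (16.9-fold, adjusted p = 0.000122) and Ptpn5 (7.87-fold, adjusted p = 0.000835). In SEZ_Prom relative to SEZ_CD24, 5 of 18 rose and 0 fell (median 1.63), namely Ptpn5, Gnb5, Actn2, Drd1 and Pde1b.

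In SEZ_GFPprom, 2 of the 18 rose over SEZ_GFP, Pde1b (log2 difference 1.65, adjusted p = 0.0231) and Gnal, the stimulatory G protein subunit of striatal neurons (2.44, adjusted p = 0.0288). Relative to SEZ_Prom, 4 of 18 fell in SEZ_GFPprom (Drd1, Gnb5, Actn2 and Ptpn5), and relative to SEZ_CD24 0 of 18 passed in limma, with 5 at an unadjusted p under 0.05. Of the 18, 2 rose and 1 fell in SEZ_GFP relative to DIEC_GFP, and 3 rose and 1 fell in SEZ_CD24 relative to DIEC_GFP. Between SEZ_GFP and SEZ_CD24 0 of 18 passed, with 1 at an unadjusted p under 0.05. Chrm4, the muscarinic receptor of direct pathway neurons, was at 10 or below on every array, and the peptide precursor Pdyn ran between 12 and 26.

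**Figure D3:**
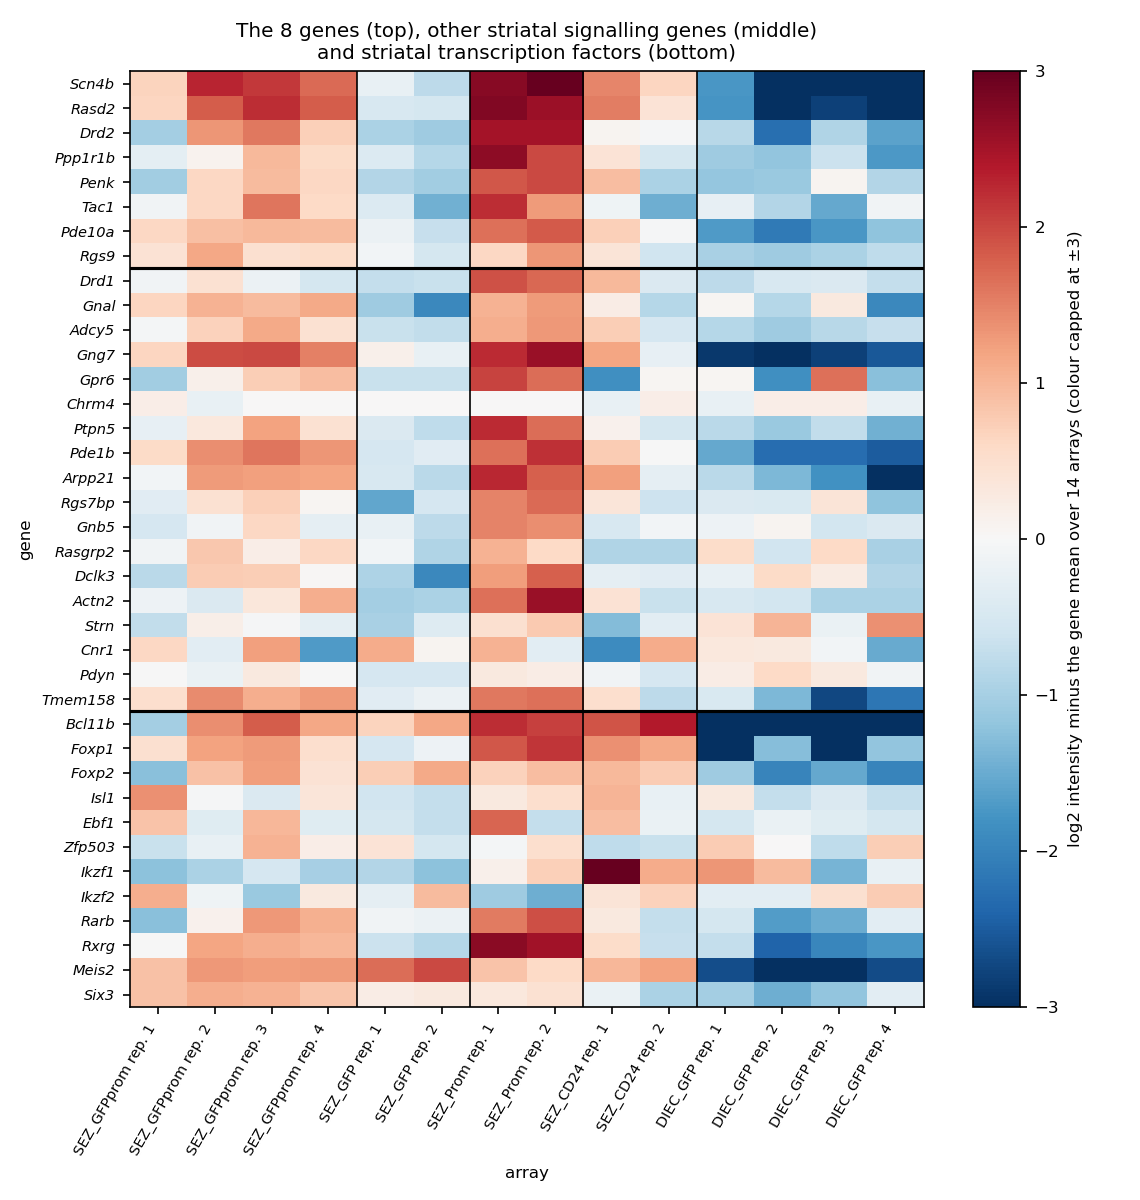
Log2 intensity of the 8 members and of the other striatal signalling genes and transcription factors on each of the 14 arrays, each gene centred on its mean over the arrays, with arrays as columns grouped by sort. The SEZ_Prom columns are the highest for all 8 members by group mean, and for 15 of 18 other signalling genes and 5 of 12 transcription factors.

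The 12 striatal transcription factors were spread over more groups, with 5 highest in SEZ_Prom, 4 in SEZ_CD24, 2 in SEZ_GFP and 1 in SEZ_GFPprom. In SEZ_Prom relative to DIEC_GFP, 7 of 12 rose and 0 fell. The 4 with the smallest adjusted p were Meis2, a homeobox factor (13.2-fold, adjusted p = 4.09e-05), the retinoid receptor Rxrg (19.9-fold, adjusted p = 0.000469), Bcl11b, a zinc finger factor of projection neurons (47.3-fold, adjusted p = 0.000514), and Foxp1 (20.4-fold, adjusted p = 0.00211). Relative to DIEC_GFP, 5 of 12 also rose in SEZ_CD24, with Bcl11b 47.6-fold higher (adjusted p = 0.000162), and 4 of 12 rose in SEZ_GFP, with Bcl11b 20.3-fold higher (adjusted p = 0.00105).

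Rxrg had the order of groups that 6 of the members had. It measured 127, 288, 273 and 253 in SEZ_GFPprom, 82 and 70 in SEZ_GFP, 830 and 731 in SEZ_Prom, 186 and 79 in SEZ_CD24, and 78, 24, 33 and 38 in DIEC_GFP. It fell by 3.36 in SEZ_GFP relative to SEZ_Prom (adjusted p = 0.00697), was 6.43-fold higher in SEZ_Prom than in SEZ_CD24 (adjusted p = 0.0207) and fell by 1.80 in SEZ_GFPprom relative to SEZ_Prom (adjusted p = 0.0434). Meis2 went the other way between the GFP and prominin sorts, with 2397 and 2980 in SEZ_GFP against 1352 and 1142 in SEZ_Prom (log2 difference 1.10, adjusted p = 0.0439). Among the SEZ groups the only other calls of the 12 were Six3, higher in SEZ_GFPprom than in SEZ_CD24, and Ikzf1, lower there.

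Close relatives of the members also passed in some comparisons, and those of SEZ_Prom with the GFP and CD24 sorts are given here. Drd1, Gnb5 and Rgs7bp belong to the striatal signalling list too, so their calls were already counted above. Of 7 other sodium channel subunits, Scn2b, an auxiliary subunit like Scn4b, was the only one to pass in SEZ_GFP minus SEZ_Prom (-2.67, adjusted p = 0.0121) and in SEZ_Prom minus SEZ_CD24 (2.16, adjusted p = 0.0309). Of 4 other dopamine and adenosine receptors, only Drd1 passed in those comparisons, while Drd3 was at 10 or below on every array. Of the 6 relatives and partners of Rgs9, 2 fell in SEZ_GFP relative to SEZ_Prom. These were Gnb5, the G protein beta subunit that stabilises Rgs9 (-1.94, adjusted p = 0.0101), and the membrane anchor Rgs7bp (-2.62, adjusted p = 0.0146). In SEZ_Prom over SEZ_CD24, 2 of the 6 rose, namely Rgs7 (2.65, adjusted p = 0.00239) and Gnb5 (1.72, adjusted p = 0.0205). Of 11 other neuropeptide precursors, Nts fell in SEZ_GFP relative to SEZ_Prom (-1.77, adjusted p = 0.00499), and Nts and Cartpt rose in SEZ_Prom over SEZ_CD24 (adjusted p = 0.0122 and 0.0326).

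Markers of other cells moved between the same groups. The 16 mature neuron markers summed to 3386 to 6736 in SEZ_GFPprom, 2975 to 3303 in SEZ_GFP, 12726 to 13349 in SEZ_Prom, 4908 to 7171 in SEZ_CD24 and 761 to 5158 in DIEC_GFP. Of these 16, 3 fell in SEZ_GFP relative to SEZ_Prom (Thy1, Camk2a and Eno2; median -1.64), 3 rose in SEZ_Prom relative to DIEC_GFP (median 1.21) and 0 passed in limma in SEZ_Prom minus SEZ_CD24 (median 1.44, 6 at an unadjusted p under 0.05). The 8 members summed to 2366 to 6246 in SEZ_GFPprom, 1103 to 1437 in SEZ_GFP, 9252 to 10090 in SEZ_Prom, 1854 to 3894 in SEZ_CD24 and 530 to 837 in DIEC_GFP. Both sums were thus highest in SEZ_Prom, without overlap with any other group. The members' sum there rests largely on the genes that led to the choice, Rasd2 (3996 and 3440) and Scn4b (1829 and 2307). The sum of 761 was that of the fourth DIEC_GFP array, where 13 of the 16 neuron markers were lowest of their group, but 2 of the 8 members. The 3 GABAergic neuron markers were all highest in SEZ_CD24, and 0 passed in limma in SEZ_GFP minus SEZ_Prom or in SEZ_Prom minus SEZ_CD24, with 0 at an unadjusted p under 0.05 in both.

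Of 9 oligodendrocyte markers, 7 fell in SEZ_GFP relative to SEZ_Prom and 8 rose in SEZ_Prom relative to SEZ_CD24. They summed to 10837 to 17403 in SEZ_GFPprom, 4970 to 7595 in SEZ_GFP, 39340 to 39545 in SEZ_Prom, 6531 to 12349 in SEZ_CD24 and 34560 to 51036 in DIEC_GFP, so DIEC_GFP, where the members were low, overlapped SEZ_Prom. The 11 neuroblast markers were all highest in SEZ_CD24, with 6 higher in SEZ_GFP than in SEZ_Prom and 10 lower in SEZ_Prom than in SEZ_CD24, opposite in sign to the members. Of 8 choroid plexus markers, 5 fell in SEZ_GFP relative to SEZ_Prom and 4 rose in SEZ_Prom relative to DIEC_GFP, with sums of 421 to 7754 in SEZ_GFPprom, 512 to 9264 in SEZ_GFP, 12880 to 13426 in SEZ_Prom, 9212 to 14865 in SEZ_CD24 and 1208 to 8730 in DIEC_GFP. The 10 microglia markers summed to 2322 to 4183 in SEZ_GFPprom, 1006 to 1289 in SEZ_GFP, 5925 to 7964 in SEZ_Prom, 13357 to 26764 in SEZ_CD24 and 2974 to 12597 in DIEC_GFP. The 10 markers of striatal interneurons had 0 calls in limma in SEZ_GFP minus SEZ_Prom and in SEZ_Prom minus SEZ_CD24, with 0 and 2 at an unadjusted p under 0.05. The part of these cell types in the members' differences was not tested.

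The ratio of 3' to 5' signal of the Gapdh and beta-actin control probe sets, a sign of RNA or amplification quality, averaged 4.94 on the log2 scale in SEZ_GFPprom, 4.73 in SEZ_GFP, 4.63 in SEZ_Prom, 5.15 in SEZ_CD24 and 5.40 in DIEC_GFP. It was lowest in SEZ_Prom, where the members were highest. The ratio ran from 5.04 to 5.74 in DIEC_GFP, apart from SEZ_Prom (4.58 to 4.68) and SEZ_GFP (4.63 to 4.82). SEZ_GFPprom overlapped DIEC_GFP only in part (4.78 to 5.17). SEZ_CD24 ran from 4.94 to 5.35 and overlapped DIEC_GFP in part. Ratio and group are thus largely confounded for SEZ_GFPprom, SEZ_GFP and SEZ_Prom against DIEC_GFP. They are also confounded between SEZ_CD24 and both SEZ_GFP and SEZ_Prom, and between SEZ_Prom and SEZ_GFPprom. Differences with the ratio in the model extrapolate in all these comparisons. The counts with this ratio in the model are given beside the comparisons they changed.

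**Figure D4:**
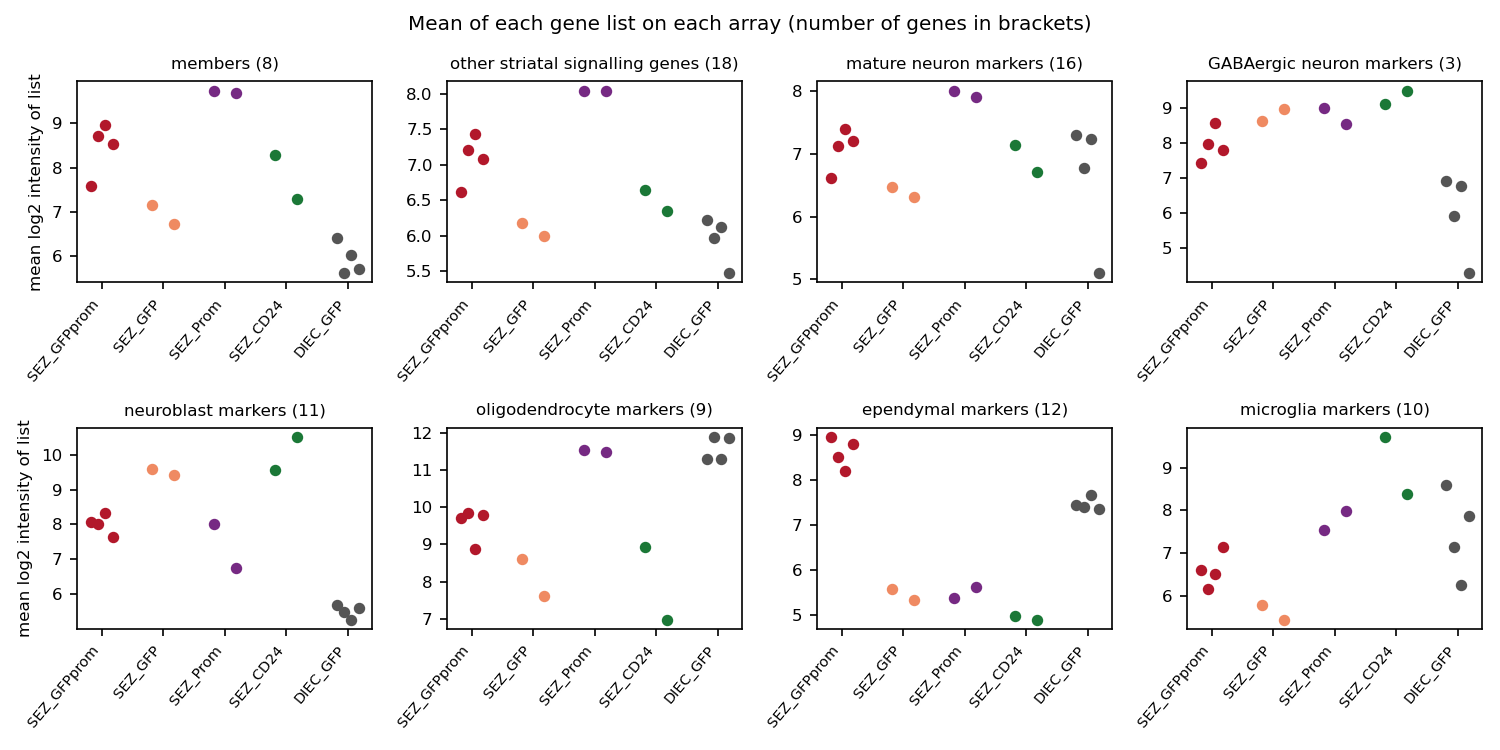
Mean log2 intensity of 8 gene lists on each of the 14 arrays (points), 1 panel per list with a scale of its own, with the 5 sort groups along the horizontal axis. The members' mean lies between 9.67 and 9.73 in SEZ_Prom, and between 7.59 and 8.96 in SEZ_GFPprom, 6.74 and 7.15 in SEZ_GFP, 7.28 and 8.28 in SEZ_CD24 and 5.63 and 6.41 in DIEC_GFP.

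The members also varied together between arrays of 1 group. In SEZ_GFPprom all 8 were lowest in the first array, where 32.5% of all genes were lowest or tied for lowest. Of the other striatal signalling genes 13 of 18 were lowest there, and of the mature neuron markers 12 of 16, but 0 of 12 ependymal, 0 of 11 neuroblast and 0 of 9 oligodendrocyte markers. In SEZ_GFP all 8 were lower in the second array, as were 53.8% of all genes and all 9 oligodendrocyte markers, and in SEZ_CD24 all 8 were lower in the second array, as were 50.1% of all genes. In that second SEZ_CD24 array the 9 oligodendrocyte, 7 oligodendrocyte progenitor, 12 astrocyte, 10 microglia and 8 endothelial markers were also all lower, and the 11 neuroblast markers all higher. Arrays of DIEC_GFP and SEZ_Prom had no such common order among the members.

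Over the 14 arrays the 28 pairs of members had Pearson r between 0.648 and 0.981 (median 0.838) on the log2 scale. As deviations from the group means, r lay between -0.00772 and 0.774 (median 0.448), with 27 of 28 pairs positive. These correlations are across arrays that share groups and sorts, and they are given as a description.

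Among 2753 genes whose group means span at least 2 log2 units, the 10 most like Scn4b over the 14 arrays were Pde1b (r = 0.987), Ddn (0.986), Syndig1l (0.981), Rasd2 (0.981), Sipa1l1 (0.978), Fbxl16 (0.973), Pde2a (0.971), Kcnip2 (0.964), Gng7 (0.963) and Camkv (0.961). The 10 most like Rasd2 were Fbxl16 (r = 0.994), Pde2a (0.985), Syndig1l (0.983), Ddn (0.981), Scn4b (0.981), Pde1b (0.980), Camk2a (0.971), Shank3 (0.970), Arpp21 (0.969) and Kalrn (0.968). Ranked among all 18192 other genes by likeness to Scn4b, Rasd2 came at 4, Pde10a at 13, Rgs9 at 67, Drd2 at 104, Ppp1r1b at 182, Penk at 675 and Tac1 at 695. The peptide precursors were thus the members least like Scn4b. The likeness of Scn4b and Rasd2 is not independent of their choice. Both were picked as raised in SEZ_GFPprom over DIEC_GFP, and the arrays of these groups enter the correlation.

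The probe sets of a gene did not always give the same picture. Both probe sets of Rasd2 had the same order of groups, and the dimmer, whose name does not mark shared sequence, measured 196, 541, 650 and 537 in SEZ_GFPprom, 143 and 115 in SEZ_GFP, 1559 and 1094 in SEZ_Prom, 492 and 222 in SEZ_CD24, and 54, 30, 38 and 27 in DIEC_GFP. Its difference between SEZ_GFPprom and DIEC_GFP was 3.61 on the log2 scale, against 4.83 for the brighter one. Of the 5 probe sets of Pde10a, 4 were highest in SEZ_Prom, and the fifth ran between intensities of 20 and 32 with group means within 0.29 log2 units. The dimmer probe set of Tac1 stayed between 7 and 14, and the other probe sets of Rgs9 between 7 and 21 and between 8 and 15, near the floor of the arrays on which 25.4% to 25.7% of probe sets were at 10 or below. Scn4b, Drd2, Ppp1r1b and Penk had 1 probe set each.

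**Figure D5:**
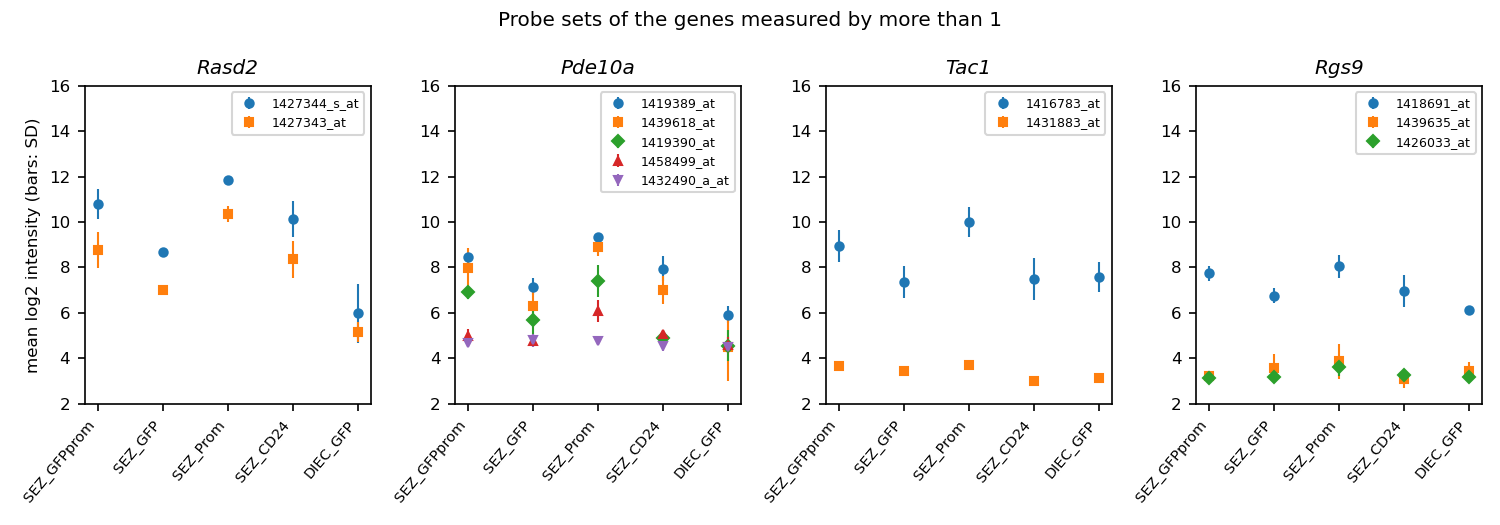
Mean log2 intensity with SD (bars) of each probe set of Rasd2, Pde10a, Tac1 and Rgs9 in the 5 sort groups. The 2 probe sets of Rasd2 run in parallel, while the dim probe sets of Tac1 and Rgs9 lie flat, with group means between 3.00 and 3.86.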

How the data were processed

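Values were made from Affymetrix mouse arrays by the authors with RMA, per the submitters' processing notes, which give no version. The deposited table holds them as linear intensity in whole numbers between 3 and 18925. Their log2 was taken with no pseudocount. Per the labels' protocols, RNA went through a 2-round amplification before biotin labelling. Arrays have no depth, and precision depends on how many there are.

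Of 45101 probe sets, 64 were controls, 34945 had 1 gene symbol, 932 several and 9160 none. Only those with 1 symbol were used, and a gene was read from its brightest probe set by the mean of all 14 arrays. Arrays were grouped by their titles.

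All 18193 genes were fitted together with limma 3.58.1 in R 4.3.3, as group means without covariates (degrees of freedom 9 residual, 2.627 prior). Tests were two-sided with Benjamini-Hochberg adjustment over all genes and a threshold of 0.05. The code was checked on simulated data. No low-value filter was used, so every measured member was counted. A difference is the first group minus the second. The members and lists were chosen with earlier results of these data known, so they are no independent support for each other. Besides the members, a list's genes were named by smallest adjusted p (up to 4) or as its few calls, and a few relatives were chosen after their values were seen. The alternatives were other normalizations, filters, probe set rules, samples in the fit, a replicate block, array weights, another prior, leaving out each array, and, chosen after seeing the data, the 3' to 5' control ratio as a covariate. Adora2a and some list genes were not analysed here.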

Additional observations from a re-analysis of the deposited data

Results flagged for a closer look

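Among 16 groups of 4 arrays (8 genes in SEZ_GFPprom and in DIEC_GFP), an array stood far from its group in 2, where chance alone puts about 1 in 20 groups past the 95% limit used (Dixon's ratio of the gap to the range). Scn4b measured 83 in the first DIEC_GFP array, against 16 to 20 in the other 3, and the gap was 0.864 of the group's range on the log2 scale. Rgs9 measured 303 in the second SEZ_GFPprom array, against 183 to 198 in the other 3, and the gap was 0.844 of the range.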

How the results depend on the processing

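The tested differences of the members were recomputed under 26 settings. Of 1551 recomputed values, 1440 kept their direction and their side of the threshold, 73 kept the direction but no longer passed, 19 passed where they had not, and 19 changed sign, none of them a call. Of 519 recomputed values of differences given without a test, 11 moved by more than the spread between arrays. With the 3' to 5' ratio as a covariate, minus DIEC_GFP, these were Scn4b at 5.94, Rasd2 at 5.90 and Pde10a at 2.19 in SEZ_GFPprom, Scn4b at 4.14 and Rasd2 at 4.28 in SEZ_GFP, and Scn4b at 7.71 and Rasd2 at 7.70 in SEZ_Prom. Without probe sets of shared sequence, Rasd2 was at 3.61 in SEZ_GFPprom and 3.20 in SEZ_CD24, and with probe sets averaged Pde10a was at 1.80 and Rgs9 at 0.447 in SEZ_GFPprom. Drd2, Ppp1r1b and Pde10a in SEZ_Prom minus DIEC_GFP and Pde10a in SEZ_CD24 minus DIEC_GFP passed in every setting that tested them. Unless a value or the setting's own construction shows it, the cause of a change was not tested.

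The number of members that passed changed as follows. In the fit per probe set, a member counted as passed if any of its probe sets passed, not only its brightest. In SEZ_GFPprom minus SEZ_GFP it was 1, but 0 with the replicate block, 2 with array weights and 0 to 2 when arrays were left out in turn. In SEZ_GFPprom minus SEZ_Prom it was 1, but 2 in the fit per probe set and with only the groups compared, 3 with array weights and 0 to 1 with arrays left out. In SEZ_GFPprom minus SEZ_CD24 it was 0, but 2 with a gene's probe sets averaged or with the fit per probe set, and 0 to 1 with arrays left out. In SEZ_GFP minus DIEC_GFP it was 1, but 0 with only the groups compared or with the 3' to 5' ratio as a covariate (chosen after seeing the data), and 0 to 1 with arrays left out. In SEZ_Prom minus DIEC_GFP it was 6, but 5 with only the groups compared or with the dimmer 50% of genes left out, which took Drd2 out of the test, 3 with that covariate and 3 to 6 with arrays left out. In SEZ_CD24 minus DIEC_GFP it was 1, but 2 with the replicate block and 1 to 2 with arrays left out. In SEZ_GFP minus SEZ_Prom it was 7, but 4 with values under 10 set to 10 or with only the groups compared, 6 with the replicate block, 8 with array weights and 0 to 8 with arrays left out. In SEZ_GFP minus SEZ_CD24 it was 0 under every setting. In SEZ_Prom minus SEZ_CD24 it was 3, but 0 with only the groups compared or with the covariate, 2 with values under 10 set to 10, in the fit per probe set or with the replicate block, and 0 to 5 with arrays left out.

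Signs changed in these uncalled log2 differences. With the replicate block, Penk was -0.13 in SEZ_GFPprom minus SEZ_CD24 and 0.24 in SEZ_GFP minus DIEC_GFP, and Tac1 was 0.0424 in SEZ_CD24 minus DIEC_GFP. With a gene's probe sets averaged, Tac1 was 0.0532 in SEZ_GFP minus DIEC_GFP and 0.16 in SEZ_GFP minus SEZ_CD24, and Rgs9 was 0.0775 in SEZ_GFP minus SEZ_CD24. With arrays left out in turn, SEZ_GFPprom minus SEZ_CD24 ran from -0.0725 to 0.861 for Ppp1r1b and from -0.65 to 1.25 for Penk. SEZ_GFP minus DIEC_GFP ran from -0.326 to 0.0860 for Penk and from -0.74 to 0.27 for Tac1. SEZ_CD24 minus DIEC_GFP ran from -0.19 to 1.70 for Penk and from -0.77 to 0.56 for Tac1. SEZ_GFP minus SEZ_CD24 ran from -0.79 to 0.53 for Tac1 and from -0.71 to 0.29 for Rgs9, and SEZ_GFPprom minus SEZ_Prom from -0.669 to 0.0353 for Rgs9.

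Over 22 pairs of same-numbered arrays, deviations from the group means correlated at -0.188 to 0.129, over 0.1 in 3. These values showed no strong pairing by replicate number. Between groups of 2 arrays, both replicate numbers give the same r by construction, as for 0.129 between SEZ_GFP and SEZ_CD24, so the values are not separate. Groups of 2 arrays limit these results, and a group left with 1 array was taken to vary like the others.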
